A study of Mus musculus with 2 samples.

Results

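The genes described here are 40 genes of DNA replication and S phase, taken as a list of gene symbols with no threshold on a measured value, though the list was drawn up with earlier results of these data known. All 40 symbols matched 1 row each of the 31053 genes counted, and all 40 had UMIs in both libraries. By role, 8 of them belong to the licensing and firing of replication origins, among them Gmnn, or geminin, which inhibits licensing. Another 10 work at the replication fork, 3 supply nucleotides, 8 act on chromatin and histones and 6 in repair and recombination. A further 4 are cyclins, E2F factors or parts of ubiquitin ligases, and the last is Wdr76. The cells came from mouse eye cups at postnatal day 0, freed of cornea, lens and optic nerve and split into single cells with papain. The control was Myrf fl/fl, in which both copies of Myrf carry sites for the cre recombinase, and the mutant was Rx>cre Myrf fl/fl, with the same alleles and a transgene that drives cre from Rx, a gene active in the field of cells that forms retina and pigment epithelium. Each genotype was 1 library from 3 pooled eyecup samples, so every difference below lies between 2 libraries, has no replicate check and carries no p-value. Intervals are exact 95% intervals of the counts and cover counting error only.

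Before S phase the origin recognition complex and Cdc6 load the Mcm2 to Mcm7 helicase onto DNA. In S phase Cdc45 and the GINS complex turn that helicase on, the primase and polymerases copy both strands, and Pcna, a ring loaded by replication factor C, holds the polymerases on the template. Many genes of this machinery are switched on together by E2F factors at the border of G1 and S. In the newborn mouse retina the progenitors still divide, the cells with neurogenic factors are leaving the cycle, and amacrine cells and photoreceptors no longer divide.

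The control library held 14305 barcodes with a median of 4201 UMIs and the mutant library 12222 with a median of 4952, and 59 barcode sequences occurred in both. After filtering, 12485 control cells and 10813 mutant cells were kept in 36 clusters, formed without the 40 genes and without the other replication, histone and mitosis genes. Clusters were named from marker genes, and 7 classes held at least 100 cells of each library. In both libraries at least 7 of 9 progenitor markers, 8 of 11 neurogenic markers and all photoreceptor and mesenchyme markers were higher in their class than in any other of the 7. Only 6 of 10 RPE markers were so in the mutant, where Rpe65 was at 0 UMIs in the RPE-like cells. Mesenchyme markers reached 2416 CPM in another of the 7 classes of the control library and 340 in the mutant library, and the part of such RNA in the results was not tested. Clusters that stayed unnamed held 18.0% of control and 10.2% of mutant cells. One of them, left unnamed as shallow, had 836 control and 281 mutant cells and met the limits for 9 of 9 progenitor markers. The 40 genes stood there at 3508 and 4345 CPM. Another, where markers of another class led, had 599 and 32 cells and met them for 8 of 9. How leaving out these cells bears on the progenitor-like values was not tested. Myrf, the targeted gene, had 743 UMIs (231 CPM, UMIs per 1000000) in control RPE-like cells and 64 (26.0 CPM) in mutant RPE-like cells. These counts come from the 3′ ends of transcripts and do not read the deletion itself.

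The 40 genes together were highest in retinal progenitor-like cells and next highest in neurogenic-like cells, in both genotypes. Their summed level was 4203 CPM (4176 to 4231) in the 4402 control progenitor-like cells and 4825 (4798 to 4851) in the 5048 mutant ones. In neurogenic-like cells it was 2279 (2241 to 2318) in the control and 2897 (2857 to 2938) in the mutant. Reads were counted at the 3′ end, once per captured transcript, so levels are not divided by gene length. Next came the endothelial-like cells, with 1102 (1067 to 1138) in the control and 991 (946 to 1037) in the mutant. The remaining 4 classes lay between 694 and 894 CPM. In the control, photoreceptor-like cells (819) and mesenchyme-like cells (813) had overlapping intervals, as did amacrine-like (738) and RPE-like (694) cells. In the mutant the same neighbours overlapped, at 885 and 894 and at 818 and 786.

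**Figure D1:**
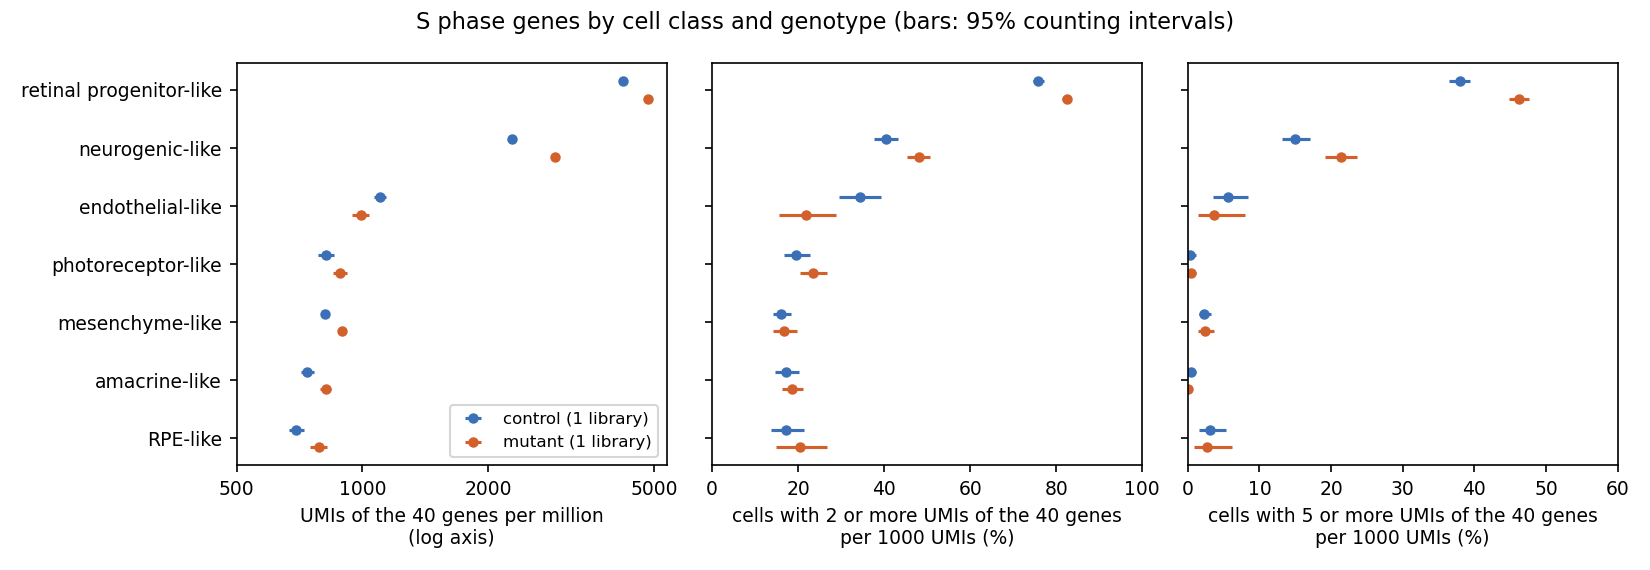
Summed level of the 40 genes in CPM (left, log axis), and the percent of cells with 2 or more (middle) and with 5 or more (right) of their UMIs after each cell was thinned to 1000 UMIs, for 7 cell classes. Points are the control library (blue) and the mutant library (orange) with 95% counting intervals, and progenitor-like cells stand highest in all 3 panels at 4203 and 4825 CPM.

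Cells were then compared at equal depth, each thinned at random to 1000 UMIs. In progenitor-like cells 75.9% of 4363 control cells (74.6 to 77.1) and 82.5% of 5036 mutant cells (81.4 to 83.5) held at least 2 UMIs of the 40 genes. In neurogenic-like cells the shares were 40.5% (37.7 to 43.2) and 48.0% (45.3 to 50.7). The classes without division set the background. Amacrine-like cells had 17.2% (control) and 18.6% (mutant), and photoreceptor-like cells 19.6% and 23.4%, at median depths of 5000, 5449, 2912 and 3269 UMIs before thinning, against 4469 and 4709 in progenitor-like cells. Mesenchyme-like cells, at 16.1% and 16.8%, and RPE-like cells, at 17.3% and 20.3%, were at this background. The mean per thinned cell was 0.90 and 0.89 UMIs in RPE-like and 0.80 and 0.88 in photoreceptor-like cells. It was 0.76 and 0.75 in mesenchyme-like and 0.72 and 0.79 in amacrine-like cells. The order of these classes at equal depth thus differed from that by CPM, where RPE-like cells were lowest. Endothelial-like cells were above the background in the control, at 34.3% (29.6 to 39.2), and within it in the mutant, at 21.7% (15.6 to 28.9). The log2 ratio of these shares, mutant over control, was -0.66 (-1.12 to -0.19). It was -0.30 (-0.81 to 0.20) in cells with at least 2000 UMIs and -0.22 (-0.57 to 0.12) with thinning to 2000 UMIs, and both intervals include 0. With at least 3 UMIs of the 40 genes it was -1.28 (-2.12 to -0.43). The control endothelial-like cells with at least 2 UMIs of the 40 genes had a median depth of 2959 UMIs, against 8283 in those with fewer. Per 1000 UMIs they held 1.80 progenitor, 1.18 neurogenic and 4.41 mesenchyme marker UMIs, against 1.02, 0.59 and 2.40, whose part in the share was not tested. Thinning left out 39 control and 12 mutant progenitor-like cells, and 100 control and 24 mutant RPE-like cells. Without thinning the shares were 96.4% and 98.5% in progenitor-like cells, 78.8% and 85.3% in neurogenic-like cells and 80.3% and 85.4% in amacrine-like cells.

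The share of cells with at least 5 UMIs was at most 0.416% in amacrine-like and photoreceptor-like cells of either library. In mesenchyme-like cells it was 2.27% (1.52 to 3.24) in the control and 2.34% (1.39 to 3.68) in the mutant, and in control RPE-like cells 3.09% (1.61 to 5.34). The mutant RPE-like cells had 5 such cells of 187, or 2.67% (0.874 to 6.13), an interval that overlaps the background. The endothelial-like cells had 5.67% (3.59 to 8.46) and 3.73% (1.38 to 7.93). Progenitor-like cells had 37.96% (control) and 46.3% (mutant), and neurogenic-like cells 15.004% and 21.3%. The median progenitor-like cell held 3 UMIs in control and 4 in mutant cells, with most at 21 and 24. The cut is near many cells: 599 control and 538 mutant progenitor-like cells held exactly 1 UMI, and 638 and 639 exactly 2.

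**Figure D2:**
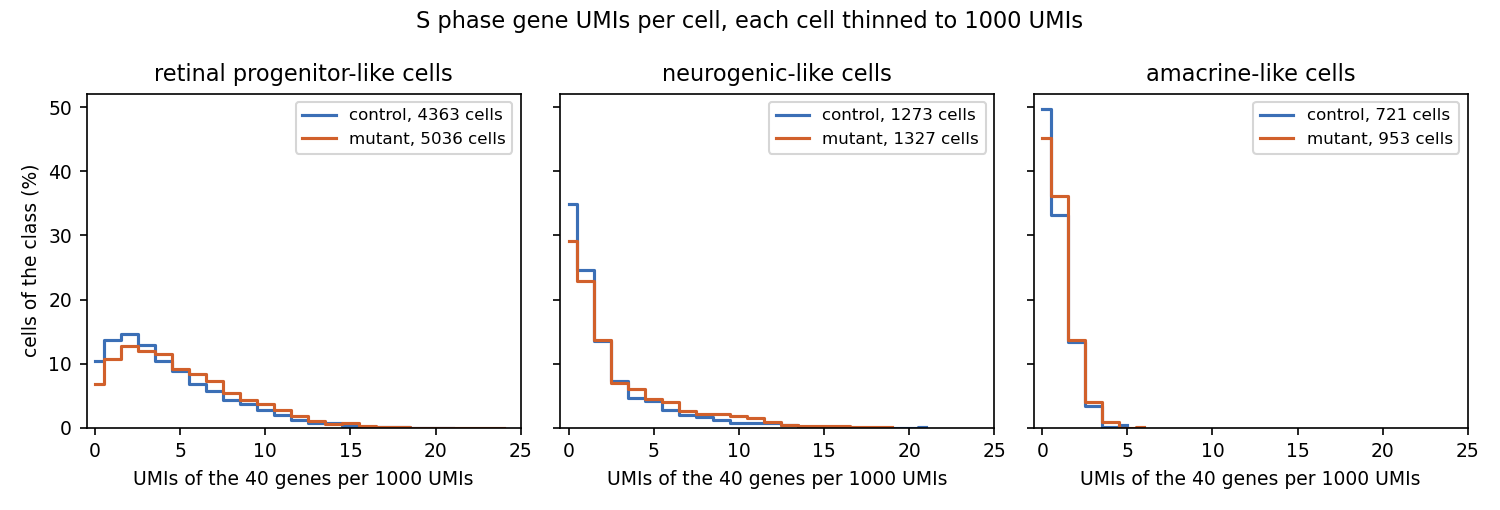
UMIs of the 40 genes per cell (x axis) against the percent of the class (y axis) after thinning to 1000 UMIs, for progenitor-like, neurogenic-like and amacrine-like cells of the control (blue) and mutant (orange) libraries. Amacrine-like cells end at 5 and 6 UMIs, while progenitor-like cells reach 21 and 24.

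For most single genes too the progenitor-like cells were highest and the neurogenic-like cells next, while the order of the other 5 classes varied from gene to gene. In the control 38 of the 40 genes were highest in progenitor-like cells, and 38 had a progenitor interval above that of all 6 other classes. Of the 9725 genes with at least as many UMIs over the 7 classes as the lowest of the 40, 16.1% and 8.59% were so. In the mutant all 40 were highest there, and for 37 the intervals were apart, against 17.6% and 9.5% of 8169 genes. The median gene was 7.97-fold higher in progenitor-like than in amacrine-like cells of the control and 8.39-fold in the mutant. Against neurogenic-like cells the median was 2.01-fold and 1.76-fold.

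The exceptions were Pold3, Ubr7 and Blm. Pold3, a subunit of DNA polymerase delta, had 56.5 CPM in control (47.2 to 67.1) and 58.4 in mutant (49.9 to 67.9) photoreceptor-like cells, against 53.3 (50.2 to 56.5) and 69.1 (66.0 to 72.4) in progenitor-like cells. The ratio of progenitor-like over photoreceptor-like cells was 0.943 (0.786 to 1.14) in the control, which includes 1, and 1.18 (1.01 to 1.396) in the mutant. Its levels in neurogenic-like cells, 30.5 and 45.0, and in amacrine-like cells, 14.96 and 18.2, were lower. Ubr7, a protein of the UBR ubiquitin ligase family, was as high in endothelial-like cells, at 39.2 and 41.8 CPM, as in progenitor-like cells, at 38.8 and 45.7. Blm, the helicase of Bloom syndrome, stood at 40.04 CPM in mutant progenitor-like cells (37.6 to 42.6) and at 37.9 in mutant neurogenic-like cells (33.4 to 42.8).

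The 3 genes with the highest level in progenitor-like cells were the same in both libraries. Nasp, a histone chaperone, had 366 CPM in the control and 393 in the mutant, against 279 and 323 in neurogenic-like, 130 and 132 in amacrine-like, 93.5 and 85.8 in photoreceptor-like, 87.9 and 79.9 in endothelial-like, 64.9 and 64.2 in RPE-like and 56.1 and 57.2 in mesenchyme-like cells. Tipin, which with Timeless keeps stalled forks intact, had 311 and 318 in progenitor-like, 178 and 204 in neurogenic-like and 46.6 to 74.0 CPM in the other 5 classes. Pcna had 282 and 333 in progenitor-like, 143 and 206 in neurogenic-like and 57.8 to 84.7 CPM elsewhere. These 3 genes were therefore also among the most abundant of the 40 in cells that do not divide.

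The 3 lowest genes were the same in both libraries as well. Brip1, a helicase of the Fanconi pathway, had 17.8 and 24.6 CPM in progenitor-like cells, 8.56 and 14.0 in neurogenic-like cells and 0.435 to 4.13 CPM elsewhere. Cdc6, the loader of the Mcm helicase, had 20.99 and 24.7, then 7.38 and 13.7, and 0.435 to 5.61 elsewhere. Ccne2, or cyclin E2, had 23.8 and 28.3, then 10.2 and 16.6, and 3.32 to 8.86 elsewhere. In control photoreceptor-like cells Brip1 and Cdc6 rested on 1 UMI each. Cdc6 was 27.1-fold higher in control progenitor-like than amacrine-like cells, an interval of 9.22 to 132 since the amacrine-like count was 3 UMIs. The ratio of progenitor-like over amacrine-like cells ranged in the control from 2.13-fold for Casp8ap2, which takes part in histone gene expression, to 36.9-fold for E2f8, a repressive E2F factor. Over photoreceptor-like cells it ranged from 0.943-fold for Pold3 to 48.3-fold for Cdc6.

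Short stretches of promoter are shown for 6 of the genes because E2F factors act on many S phase genes. Promoters (250 bases before the transcript start, from RefSeq on build GRCm38.p6) were available for 30 of the 40 genes, and the letters TTTNNCGC, on either strand and with overlapping matches counted, occurred in 10 of them (33.3%). They occurred in 25.7% of 35 other replication genes, in 0 of 26 genes of a mitosis list, in 4.94% of 27025 genes and in 7.33% of the 8663 genes whose GC content was at or above the members' median. A match describes the letters and does not show a binding site. Below, each stretch runs 5′ to 3′ on the gene's own strand, and capitals mark the matches. Mcm5 and Mcm6 code for helicase subunits, Uhrf1 reads hemimethylated DNA behind the fork, and Hells is a chromatin remodeller.
Mcm5 (chr8:75109340-75109383, plus strand): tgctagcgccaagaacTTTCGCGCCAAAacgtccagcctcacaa
Mcm6 (chr1:128359729-128359831, minus strand): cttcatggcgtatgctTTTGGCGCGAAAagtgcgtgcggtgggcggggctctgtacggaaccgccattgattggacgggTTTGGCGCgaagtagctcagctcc
Cdc6 (chr11:98907997-98908036, plus strand): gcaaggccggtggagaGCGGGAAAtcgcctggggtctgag
Uhrf1 (chr17:56303265-56303304, plus strand): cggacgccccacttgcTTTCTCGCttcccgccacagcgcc
Brip1 (chr11:86201359-86201398, minus strand): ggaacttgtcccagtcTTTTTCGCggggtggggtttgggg
Hells (chr19:38930912-38930951, plus strand): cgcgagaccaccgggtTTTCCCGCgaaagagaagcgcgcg

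The Mcm6 stretch holds 3 matches, 110, 106 and 47 bases before the start, of which the first pair overlap on opposite strands. The Mcm5 stretch holds an overlapping pair as well. The other genes with a match were Casp8ap2, Cdca7, Dtl and Pola1. The letters CCAAT were found in 70.0% of the 30 promoters and in 37.5% of all promoters, but also in 80.8% of the mitosis list, and TTTGAA in 6 of the 30 against 18.3% of all. Among genes with GC content at or above the members' median the shares were 31.1% for CCAAT and 5.16% for TTTGAA.

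Progenitor-like cells were next sorted by transcripts that the list does not hold. Replication-dependent histone transcripts accumulate in S phase and transcripts of mitotic proteins in G2 and M. A cell thinned to 1000 UMIs counted for a state at 2 or more UMIs of a list of 33 histone genes, of 30 mitosis genes, of both or of neither. In control progenitor-like cells the 40 genes had 5.70 UMIs per cell (5.39 to 6.02) in the histone state, 4.59 (4.48 to 4.70) with both, 4.01 (3.92 to 4.10) with neither and 3.17 (3.04 to 3.30) in the mitosis state. In the mutant the order was the same, at 6.14, 5.14, 4.82 and 3.72. The histone state therefore carried the highest level of the 40 genes, and the mitosis state the lowest, in both libraries.

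The states hold unequal numbers of cells. Of control progenitor-like cells, 5.07% were in the histone state, 34.8% held both, 16.2% were in the mitosis state and 43.9% held neither, and the mutant shares were 5.74%, 35.2%, 15.1% and 43.9%. The cut passes through many cells, as 772 control and 891 mutant progenitor-like cells held exactly 1 histone UMI and 672 and 749 exactly 1 mitosis UMI. In neurogenic-like cells the level was highest with both lists, at 4.14 (3.90 to 4.38) in the control and 4.94 (4.72 to 5.18) in the mutant, and lowest with neither, at 1.24 and 1.60. Cells with neither list made up 59.3% and 54.6% of them. In amacrine-like cells with neither list, the background, it was 0.715 and 0.795.

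**Figure D3:**
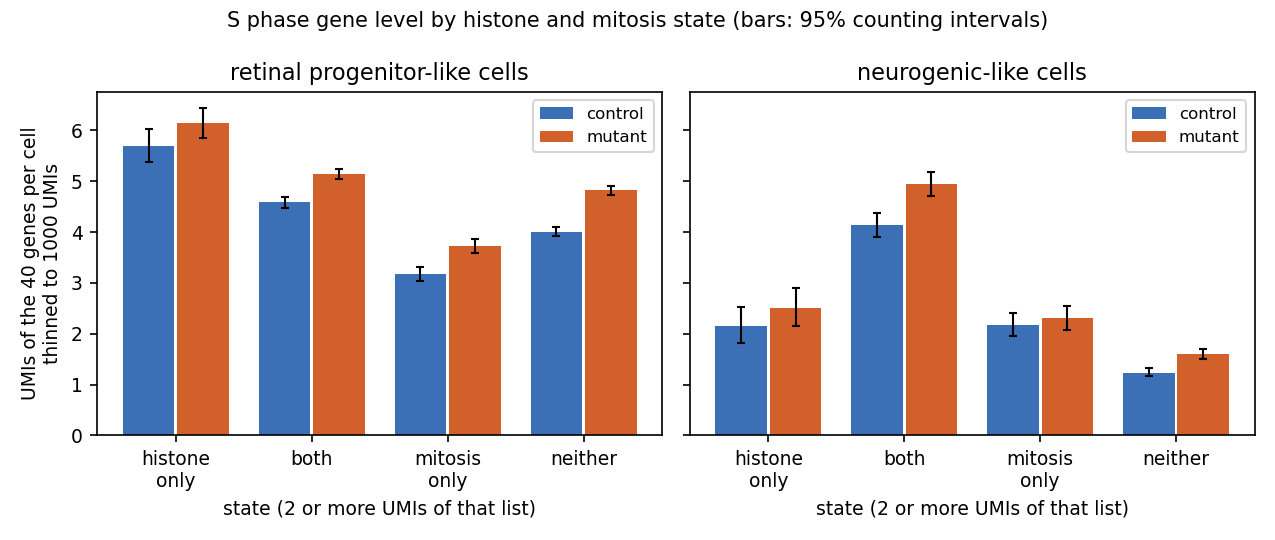
Mean UMIs of the 40 genes per cell thinned to 1000 UMIs (y axis, from 0) in cells with 2 or more UMIs of the histone list only, of both lists, of the mitosis list only or of neither, for progenitor-like and neurogenic-like cells of the control (blue) and mutant (orange) libraries, with 95% counting intervals. Progenitor-like cells are highest in the histone state at 5.70 and 6.14, and neurogenic-like cells with both lists at 4.14 and 4.94.

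Most of the 40 genes shared this pattern. In the control 38 of 40 were higher in the histone than in the mitosis state, 26 of them with an interval above 1 and none with one below, and the median was 1.95-fold. Of 8038 genes outside the histone and mitosis lists with at least as many UMIs in these states as the lowest of the 40, 50.3% were higher, 4.64% had an interval above 1 and 4.38% one below. In the mutant all 40 were higher, 22 with an interval above 1 and none below, and the median was 1.66-fold, against 53.5%, 5.96% and 4.86% of 6640 genes. These folds depend on the cut. The summed log2 ratio of histone over mitosis state was 0.85 in control and 0.72 in mutant cells, 0.16 and 0.22 with a cut at 1 UMI, 1.39 and 1.22 at 3 UMIs, and 0.31 and 0.26 with thinning to 2000 UMIs. Of 40 other replication genes 37 and 38 were higher, 21 and 22 with an interval above 1 and 1 and 1 with one below, with medians of 1.95-fold and 1.87-fold.

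The state with the highest value differed from gene to gene, but neighbouring states were not compared by a test and many of these values rest on few UMIs. The highest value was in the histone state in both genotypes for 17 genes, among them Pcna and Ccne2. It was in the state with both lists for 11 genes, among them Rrm2 and E2f8, and with neither list for Ung, the uracil glycosylase that removes uracil from DNA, and Cdca7, a cofactor of Hells. Ung had 159 UMIs per 1000 cells with neither list, 118 in the histone state, 80.5 in the mitosis state and 26.4 with both in the control, and 175, 114, 89.2 and 22.0 in the mutant. Its ratio of histone state over neither list was 0.739 (0.475 to 1.10) in the control and 0.651 (0.442 to 0.930) in the mutant, and that of Cdca7 0.890 (0.576 to 1.32) and 0.799 (0.550 to 1.13), so only the mutant Ung interval lies below 1. No gene was highest in the mitosis state.

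The 5 largest contrasts between histone and mitosis state in the control were those of Brip1 (5.61-fold, 1.43 to 26.1), Ccne2 (4.00-fold, 1.75 to 9.37), Atad2 (3.52-fold, 2.36 to 5.25), Dtl (3.20-fold, 1.87 to 5.50) and Mcm4 (2.89-fold, 1.67 to 4.99). Atad2 is a chromatin ATPase and Dtl the substrate receptor of a ubiquitin ligase that acts with Pcna. In the mutant these genes stood at 1.13-fold (0.356 to 3.13), 2.91-fold (1.49 to 5.73), 2.02-fold (1.46 to 2.80), 1.18-fold (0.682 to 2.00) and 1.79-fold (1.15 to 2.75). Only Ccne2 was among the largest 5 in both libraries, and the other 4 of the mutant were Cdc45 (2.72-fold), Dscc1 (2.39-fold), Clspn (2.36-fold) and Tipin (2.33-fold).

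The 5 smallest in the control were Casp8ap2 (0.723-fold, 0.269 to 1.67), Usp1 (0.915-fold, 0.589 to 1.38), Nasp (1.08-fold, 0.843 to 1.37), Blm (1.11-fold, 0.431 to 2.58) and Fen1 (1.31-fold, 0.790 to 2.12). Usp1 is a deubiquitinase that acts on Pcna, and Fen1 the flap nuclease of Okazaki fragments. In the mutant they were Blm (1.03-fold), Exo1 (1.09-fold), Usp1 (1.10-fold), Gins2 (1.10-fold) and Brip1 (1.13-fold). Blm and Usp1 were thus in both sets of 5, with intervals that include 1. Brip1 moved from the largest to among the smallest on 7 and 6 UMIs in the histone state, and no order among single genes is read from counts of this size.

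Between genotypes, the question was whether the level of these genes differed within a class. In progenitor-like cells the summed level was 1.15-fold higher in the mutant library, a log2 ratio of 0.20 (0.19 to 0.21), and 39 of the 40 genes had a ratio above 0. The median gene stood at 0.23, against 0.05 over the 13977 genes with at least 20 UMIs in that class. A ratio above 0 was found for 60.6% of all those genes. The counting interval lay above 0 for 35 of the 40 genes, against 20.4% of all 13977 and 28% of the 6168 genes with at least as many UMIs as the lowest of the 40. With log2(CPM + 1), 1 of the 40 genes was at least 1.5-fold higher and 0 were at least 1.5-fold lower, where 1.32% and 1.92% of all genes were. Most of the 40 genes were thus higher by less than 1.5-fold in this comparison of 2 libraries.

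The gene past that fold was Clspn, or Claspin, which carries the checkpoint signal from stalled forks to Chk1. It had 53.7 CPM (50.6 to 56.9) in control and 89.2 (85.6 to 93.0) in mutant progenitor-like cells, a log2 ratio of 0.72 (0.63 to 0.84), which was 1.62 (0.27 to 3.28) in cells of at most 2000 UMIs. In neurogenic-like cells it had 30.2 and 58.6, a log2 ratio of 0.93 (0.70 to 1.22). Its levels were 7.84 and 10.1 in mesenchyme-like, 2.32 and 4.98 in amacrine-like, 2.17 and 4.52 in photoreceptor-like, 3.11 and 6.10 in RPE-like and 13.9 and 11.1 in endothelial-like cells. In those 5 classes every interval included 0. After thinning, 4.17% of control and 7.61% of mutant progenitor-like cells held a Clspn UMI, against 0.277% and 0.630% of amacrine-like cells.

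Tyms, or thymidylate synthase, was the only one of the 40 genes that was lower in mutant progenitor-like cells, at 189 CPM (183 to 195) in control and 168 (163 to 174) in mutant cells, a log2 ratio of -0.17 (-0.23 to -0.10). In neurogenic-like cells it was 104 and 106. The other genes of nucleotide supply, the ribonucleotide reductase subunits Rrm1 and Rrm2, had log2 ratios of 0.12 and 0.13 in progenitor-like cells. The 3 together were at 426 and 427 CPM there, a log2 ratio of 0.00 (-0.04 to 0.04).

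The other roles were higher together. In progenitor-like cells the 8 chromatin and histone genes had a summed log2 ratio of 0.25 (0.22 to 0.27), the 8 genes of origin licensing and firing 0.22 (0.19 to 0.25), the 4 cyclin, E2F and ligase genes 0.23 (0.18 to 0.29), the 10 fork genes 0.19 (0.16 to 0.21) and the 6 repair genes 0.18 (0.14 to 0.22). All genes in these 5 roles had a ratio above 0. The Mcm genes Mcm2, Mcm4, Mcm5 and Mcm6 had log2 ratios of 0.24, 0.38, 0.26 and 0.29. Wdr76, a WD repeat protein, was at 52.9 and 77.9 CPM, a log2 ratio of 0.55 (0.45 to 0.66), and Uhrf1 at 105 and 148, a log2 ratio of 0.48 (0.41 to 0.56), and these were the next highest after Clspn.

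**Figure D4:**
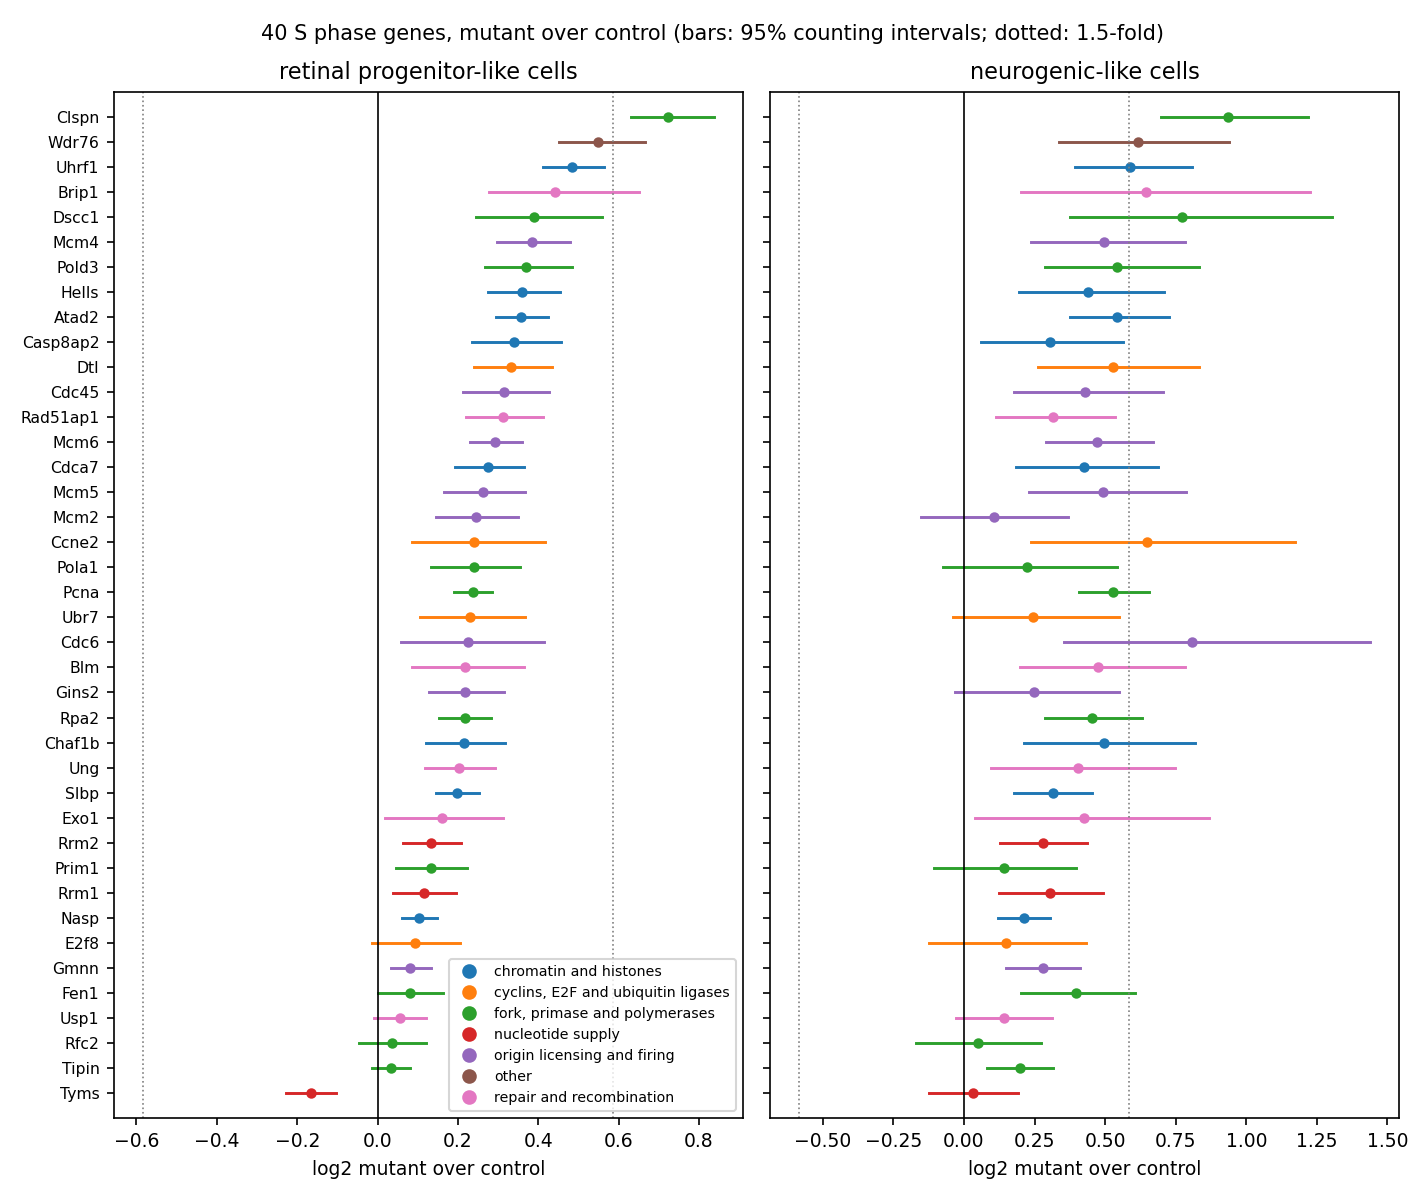
Log2 ratio of mutant over control for each of the 40 genes (rows, coloured by role, in the order of their progenitor-like ratio) in progenitor-like and neurogenic-like cells, with log2(CPM + 1) as points and the 95% counting interval of the plain ratio as lines. Dotted lines mark 1.5-fold, which Clspn passes in progenitor-like cells and 7 genes pass in neurogenic-like cells, and Tyms is the gene to the left of 0.

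In neurogenic-like cells the summed level was 1.27-fold higher in the mutant, a log2 ratio of 0.35 (0.31 to 0.38), and all 40 genes had a ratio above 0, as did 59% of all 12033 genes. For 31 of the 40 the interval lay above 0, against 11.4% of all genes and 14.1% of genes with as many UMIs as the lowest of the 40. At least 1.5-fold higher were 7 genes, all with intervals above 0, and 0 were at least 1.5-fold lower, against 3.21% and 2.59% of all genes. They were Clspn, given above, Cdc6, Dscc1, Brip1, Ccne2, Wdr76 and Uhrf1. Dscc1, part of a complex that loads Pcna and joins sister chromatids, had 10.1 and 17.9 CPM, a log2 ratio of 0.77 (0.38 to 1.30). Cdc6 had a log2 ratio of 0.81 (0.36 to 1.44), Ccne2 0.65 (0.24 to 1.17), Brip1 0.65 (0.20 to 1.23), Wdr76 0.62 (0.34 to 0.94) and Uhrf1 0.59 (0.39 to 0.81). With cells first thinned to 1000 UMIs the intervals of Clspn and Wdr76 stayed above 0, while those of the other 5 genes, which then rest on fewer UMIs, included 0. Their values were 0.99 for Dscc1, 0.87 for Ccne2, 0.49 for Brip1, 0.43 for Uhrf1 and 0.15 (-1.06 to 1.41) for Cdc6. The count of genes past 1.5-fold was 11 with this thinning and 3 in cells with at least 4000 UMIs. With at most 5% mitochondrial UMIs it was 4. Wdr76 (0.43), Uhrf1 (0.49) and Brip1 (0.55) were then below 1.5-fold, with intervals above 0. Among cells of at most 2000 UMIs, the limit stated in the study's methods, the summed ratio was -0.52 (-0.87 to -0.17), and that limit leaves 2696 barcodes of the control and 810 of the mutant over all classes.

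Dscc1 had 25.4 and 33.6 CPM in progenitor-like cells, and 2.06 to 5.82 in the 5 classes other than these and the neurogenic-like cells, where all intervals of its ratio included 0. Wdr76 had 24.5 and 38.1 in neurogenic-like, 11.3 and 18.4 in photoreceptor-like, 10.6 and 11.2 in amacrine-like, 10.6 and 8.46 in endothelial-like, 8.69 and 7.32 in RPE-like and 4.66 and 3.69 in mesenchyme-like cells. Uhrf1 had 50.8 and 77.0 in neurogenic-like, 5.93 and 9.58 in amacrine-like, 6.96 and 9.73 in photoreceptor-like, 8.07 and 13.0 in RPE-like, 13.0 and 13.8 in mesenchyme-like and 27.4 and 16.4 in endothelial-like cells.

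Among progenitor-like cells the summed level was higher in the mutant within each of the 4 states. The log2 ratio was 0.27 (0.22 to 0.31) with neither list, 0.23 (0.15 to 0.31) in the mitosis state, 0.16 (0.12 to 0.21) with both and 0.11 (0.0035 to 0.21) in the histone state. With mutant levels at the control shares of states the ratio of the whole class was 0.21, beside 0.22 as measured after thinning, and with control levels at the mutant shares it was 0.01. In neurogenic-like cells the log2 ratio was 0.38 (0.25 to 0.50) with neither list and 0.26 (0.15 to 0.36) with both. The intervals of the histone state, 0.22 (-0.10 to 0.54), and of the mitosis state, 0.083 (-0.13 to 0.30), included 0. For the whole class the measured value was 0.37, against 0.28 with mutant levels at the control shares and 0.10 with control levels at the mutant shares. In that class the share of cells with both lists was 22.4% in the control and 27.6% in the mutant.

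All 5 progenitor-like clusters had a higher level in the mutant, with log2 ratios from 0.09 (0.04 to 0.13) in the cluster led by Cdkn3 and Ccnb2 to 0.35 (0.32 to 0.39) in the cluster led by Fam183b and Cntn6. The cluster led by Esco2 and histone genes had the highest level, 6091 and 6574 CPM, and a log2 ratio of 0.11 (0.09 to 0.13). The cluster led by Ung and Npy had 4915 and 5654 CPM, a log2 ratio of 0.20 (0.18 to 0.23). It held 22.7% of the control and 26.1% of the mutant cells of the class. The cluster led by Fam183b and Cntn6, at 3042 and 3890 CPM, held 28.2% and 25.8%. Of the 3 neurogenic-like clusters, the one led by Pkib, Sstr2 and Atoh7 had 1641 and 2142 CPM, a log2 ratio of 0.38 (0.32 to 0.45). The one led by Hes2, Sstr2 and Olig2 had 3892 and 4679 CPM, a log2 ratio of 0.27 (0.23 to 0.30), and it held 28.2% of the control and 34.0% of the mutant cells of the class. The one led by Gem and Neurod4 had 691 and 754, near the level of amacrine-like cells, a log2 ratio of 0.12 (-0.0016 to 0.25).

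Other lists of the cycle did not show one common shift. In progenitor-like cells the 40 other replication genes were at 3512 and 3805 CPM, a log2 ratio of 0.12 (0.10 to 0.13), with 34 of 40 above 0. The histone list was at 3161 and 3135, a ratio of -0.01 (-0.03 to 0.0026), and the mitosis list at 5996 and 5448, a ratio of -0.14 (-0.15 to -0.13) with 23 of 30 genes below 0. In neurogenic-like cells the ratios were 0.23 for other replication genes, 0.15 for histones and 0.04 for mitosis. The 9 progenitor markers had a log2 ratio of 0.05 in progenitor-like and 0.12 in neurogenic-like cells. Library depth also differed, and its part in these ratios was not tested.

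**Figure D5:**
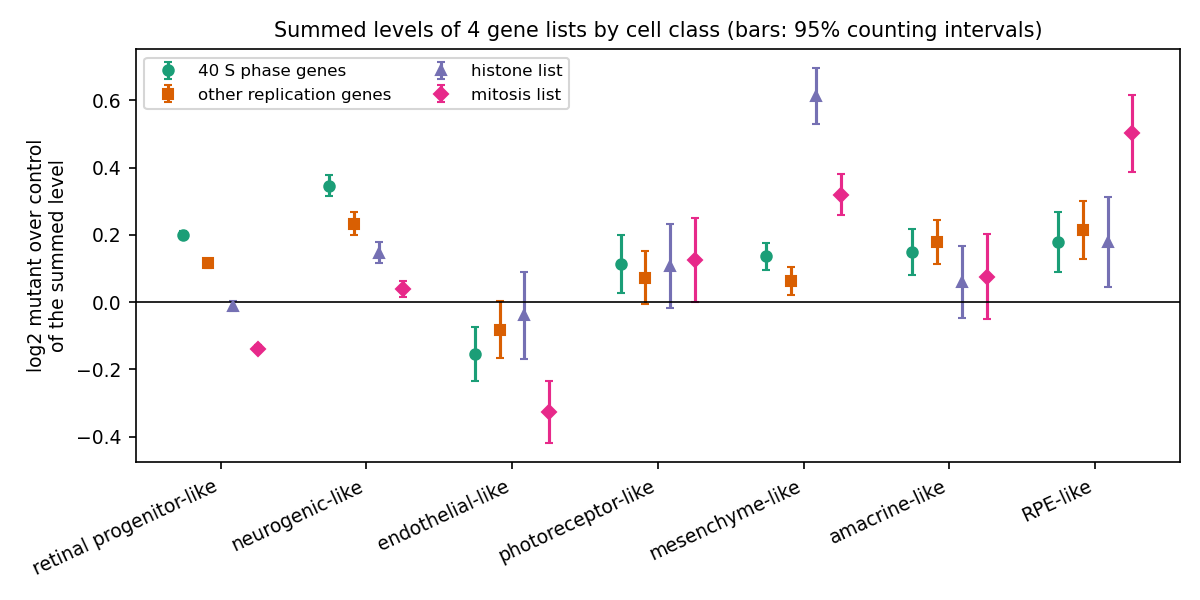
Log2 ratio of mutant over control (y axis) of the summed level of the 40 S phase genes (circles), 40 other replication genes (squares), 33 histone genes (triangles) and 30 mitosis genes (diamonds) in 7 cell classes (x axis), with 95% counting intervals. In progenitor-like cells the S phase genes are at 0.20 and the mitosis list at -0.14, while in endothelial-like cells both are below 0.

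Of the other replication genes, 0 passed 1.5-fold in progenitor-like cells and 1 did in neurogenic-like cells. That was Timeless, the partner of Tipin, with 12.6 and 20.7 CPM and a log2 ratio of 0.68 (0.31 to 1.14), and in progenitor-like cells it also had the highest ratio of this list, 0.48 (0.35 to 0.64). Cdt1, which loads the Mcm helicase with Cdc6, followed with 53.1 and 71.2 CPM in progenitor-like cells and a log2 ratio of 0.42 (0.31 to 0.53). Asf1b, a histone chaperone, was the lowest, with 95.6 and 82.9 CPM and a log2 ratio of -0.20 (-0.29 to -0.12).

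In mesenchyme-like cells the 40 genes were at 813 CPM in control and 894 in mutant cells, a log2 ratio of 0.14 (0.10 to 0.18). At least 1.5-fold higher were 0 genes and lower 0, against 2.03% and 1.65% of all genes, and 8 of the 40 intervals lay above 0, against 8.39% of all. A ratio above 0 was found for 34 of the 40, against 47.2%. The histone list was higher by more, 0.61 (0.53 to 0.70), and the mitosis list by 0.32 (0.26 to 0.38). When all cells were first thinned to 1000 UMIs, the ratio of the 40 genes was -0.02.

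Amacrine-like cells, at 0.15 (0.08 to 0.22), and photoreceptor-like cells, at 0.11 (0.03 to 0.20), had small excesses in the mutant as well. With cells first thinned to 1000 UMIs the values were 0.13 (-0.029 to 0.30) and 0.14 (-0.025 to 0.31), with intervals that include 0. Without removal of doublets they were 0.27 (0.21 to 0.32) and 0.23 (0.17 to 0.29). In amacrine-like cells 4 of 36 genes with enough UMIs were at least 1.5-fold higher and 0 lower, against 4.18% and 3.02% of all genes, and none of the 4 had an interval apart from 0. Ratios above 0 numbered 27 of 36 (57.9% of all genes) and intervals above 0 numbered 2 (9.31%). In photoreceptor-like cells 5 of 36 were higher and 0 lower, against 4.47% and 4.24%, and Cdc45 and Wdr76 were the 2 of 36 with intervals above 0 (6.51% of all genes). Ratios above 0 numbered 25 of 36 (54.4%). Cdc45 rested on 7 control and 23 mutant UMIs, or 3.04 and 7.99 CPM, and Wdr76 on 26 and 53. Without removal of doublets Cdc45 stood at 0.57 (-0.09 to 1.45), and with cells first thinned to 1000 UMIs Wdr76 stood at 2.03 (0.63 to 4.20). Cdc45 was at 56.2 and 70.1 in progenitor-like, 33.1 and 44.8 in neurogenic-like, 2.32 and 4.98 in amacrine-like, 5.34 and 5.49 in mesenchyme-like, 4.97 and 6.91 in RPE-like and 10.0 and 9.52 in endothelial-like cells.

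RPE-like cells, the class with the highest Myrf level, had 694 CPM in control and 786 in mutant cells, a log2 ratio of 0.18 (0.09 to 0.27). Of 36 genes with enough UMIs 6 were at least 1.5-fold higher and 0 lower, against 7.76% and 11.8% of all genes. Ratios above 0 numbered 25 of 36 (48.8% of all genes) and intervals above 0 numbered 4 (13.2%). The 3 of the 6 with an interval above 0 were Pola1, the catalytic subunit of the polymerase that works with primase, Mcm5 and Rrm2. Pola1 had 16 and 30 UMIs, 4.97 and 12.2 CPM, a log2 ratio of 1.14 (0.37 to 2.27). Mcm5 had 15 and 28 UMIs, 4.66 and 11.4 CPM, a log2 ratio of 1.13 (0.34 to 2.30). Rrm2 had 38 and 49 UMIs, 11.8 and 19.9 CPM, a log2 ratio of 0.71 (0.11 to 1.41). All 3 lay below their levels in neurogenic-like cells, which were 26.0 and 30.6 for Pola1, 29.4 and 41.7 for Mcm5 and 99.99 and 121.7 for Rrm2.

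The RPE-like cells of the libraries also differed in other ways, whose part was not tested. Their median depth was 2507 UMIs for control and 10451 for mutant cells. The mitosis list was higher in the mutant by 0.50 (0.39 to 0.62) and the 9 progenitor markers by 0.53 (0.47 to 0.60), with 6 of 9 above 0. RPE-like cells with at least 2 UMIs of the 40 genes held 1.72 progenitor marker UMIs per 1000 in the control and 2.50 in the mutant, against 1.04 and 1.53 in those with fewer. They held 17.04 and 13.1 RPE marker UMIs, against 26.2 and 18.0. When all cells were first thinned to 1000 UMIs, the ratio of the 40 genes was -0.01 (-0.29 to 0.26), and for the single genes it was -0.25 (-3.66 to 2.34) for Mcm5, 0.048 (-3.41 to 2.86) for Pola1 and 0.71 (-0.81 to 2.22) for Rrm2. With at most 5% mitochondrial UMIs the ratio of the 40 genes was 0.56 (0.44 to 0.69) with 14 genes past 1.5-fold and Rrm2 at 1.43 (0.58 to 2.47), and in cells with at least 4000 UMIs it was 0.33 (0.23 to 0.43). The share of all genes past 1.5-fold was not taken with that mitochondrial limit, so no excess is read from the 14.

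Endothelial-like cells were the class with a lower level in the mutant, at 1102 and 991 CPM, a log2 ratio of -0.15 (-0.23 to -0.07), with 11 of 39 genes above 0 (47.7% of all genes) and 28 below. An interval above 0 was found for 0 of the 39 (6.48% of all genes) and one below 0 for 3 (7.26%). At least 1.5-fold higher was 1 gene and lower were 2, against 3.73% and 8.32% of all genes. Uhrf1 was the one of the 3 past 1.5-fold with an interval apart from 0, at 93 and 31 UMIs, 27.4 and 16.4 CPM, a log2 ratio of -0.71 (-1.38 to -0.14). The 3 genes of nucleotide supply together had a ratio of -0.49 (-0.77 to -0.21). The mitosis list was lower too, at -0.33 (-0.42 to -0.24), as were progenitor markers, at -0.16 (-0.25 to -0.08) with 1 of 9 above 0, and neurogenic markers, at -0.60 (-0.73 to -0.48). Their part in the lower level was not tested. Median depth was 4466 UMIs for control and 8908 for mutant cells, and without removal of doublets the ratio was 0.18 (0.12 to 0.25) and that of Uhrf1 -0.08 (-0.55 to 0.37).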

How the data were processed

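Per the labels and methods, the authors aligned 10x 3′ libraries to mm10 with Cell Ranger 7.1.0 (the header of the deposited matrices names version 3.1.0) and deposited 1 filtered matrix of UMI counts per library, not normalized. Here barcodes with at least 200 genes and at most 15% mitochondrial UMIs were kept. The authors' stated upper limit of 2000 UMIs was used only as an alternative. Scrublet (scanpy 1.11.5) marked 0% of control barcodes at its own threshold, so the highest scores were removed at 0.8% per 1000 barcodes, 1646 and 1214 in all. Both libraries were clustered together in Seurat 5.3.0 (R 4.3.3) on 1974 variable genes, 30 components and resolution 1, without the genes compared or sex-linked genes. Clusters were named from marker lists, with limits set while the clusters were in view. The names cover 31 clusters, and 5 stayed unnamed.

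Levels are UMIs of a class summed per library, per 1000000 UMIs (CPM). Ratios of single genes use log2(CPM + 1), intervals the plain ratio, and a gene counts past 1.5-fold with at least 20 UMIs over both libraries. Single genes are named where they passed 1.5-fold with an interval apart from 0, had the 3 highest or lowest progenitor-like levels, or the 5 largest or smallest state ratios; Tyms, Wdr76, Uhrf1 in progenitor-like cells, Ung, Cdca7, Pcna, E2f8, Rrm2 in the states, the Mcm genes, the class exceptions and the other replication genes were chosen after their values were seen. The intervals are exact Poisson or Clopper-Pearson intervals. The members and lists were chosen with earlier results of these data known, and the promoter motifs were chosen after seeing the data. The scripts were tested on simulated counts.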

Additional observations from a re-analysis of the deposited data

Results flagged for a closer look

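Uhrf1, which reads hemimethylated DNA behind the replication fork, was higher in the mutant in neurogenic-like cells, at a log2 ratio of 0.59 (0.39 to 0.81), and lower in endothelial-like cells, at -0.71 (-1.38 to -0.14). It stands out because both intervals lie apart from 0 on opposite sides. With 1 library per genotype the difference between the classes was not tested. With cells thinned to 1000 UMIs before summing, the neurogenic-like value was 0.43 (-0.036 to 0.91) and the endothelial-like value -2.87 (-8.43 to -0.41). The endothelial-like value was -0.51 (-1.20 to 0.091) in cells with at least 2000 UMIs and -0.08 (-0.55 to 0.37) without removal of doublets, and both of these intervals include 0.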

How the results depend on the processing

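No paired analysis was possible because each genotype has 1 library. Of the alternatives, 30 of 49 values of the summed level, 55 of 70 of the share of cells and 40 of 63 counts of genes past 1.5-fold moved by less than the limit set for a change, which for the summed level and the share is the counting interval of the value and is wide in the smaller classes. Within it the share changed sign in 4 classes. It was -0.048 with at most 5% mitochondrial UMIs, -0.011 with thinning to 2000 UMIs, -0.053 at resolution 2 and -0.12 with at least 4000 UMIs in amacrine-like cells (0.11 above). With another thinning seed it was -0.025 in mesenchyme-like, -0.0083 in photoreceptor-like and -0.15 in RPE-like cells, and without doublet removal -0.023 in RPE-like cells. The intervals of these values all included 0, so no direction of the share is read in these 4 classes. All values are log2 ratios of mutant over control unless called counts, and the cause of a change was not tested. In progenitor-like cells every alternative kept the summed level and the share above 0.

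With at most 2000 UMIs per cell, which leaves few cells, the summed level was -0.52 in neurogenic-like, -0.34 in mesenchyme-like and -0.29 in RPE-like cells. The share was 0.18 for progenitor-like cells, -0.34 for neurogenic-like cells, 0.94 for amacrine-like cells, -1.12 for RPE-like cells and -2.61 for endothelial-like cells. The counts were 12 for progenitor-like cells, 2 for neurogenic-like cells, 0 for amacrine-like cells, 1 for photoreceptor-like cells, 1 for RPE-like cells and 5 for endothelial-like cells. The share of all genes past 1.5-fold was taken only at the settings of the results above. No count under an alternative is therefore read as an excess. Single genes turned: in neurogenic-like cells Ccne2 to -3.39, Clspn to -0.39, Uhrf1 to -2.14 and Wdr76 to -1.54, in photoreceptor-like cells Cdc45 to -3.03 and Wdr76 to -0.25, and in RPE-like cells Pola1 to -3.30. All their intervals included 0.

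With at most 5% mitochondrial UMIs the summed level was 0.16 in progenitor-like, 0.28 in neurogenic-like and 0.56 in RPE-like cells, the progenitor-like share 0.086, and the counts 4 in neurogenic-like, 1 in amacrine-like and 14 in RPE-like cells. With cells thinned to 1000 UMIs before summing, the summed level was 0.22 in progenitor-like, -0.023 in mesenchyme-like, -0.014 in RPE-like and -0.37 in endothelial-like cells, Mcm5 in RPE-like cells was -0.25, Pola1 there 0.048, Cdc6 in neurogenic-like cells 0.15, and the counts were 11 in neurogenic-like, 4 in mesenchyme-like, 1 in RPE-like and 5 in endothelial-like cells. The share of all genes past 1.5-fold was not taken after thinning. Thinning to 500 UMIs gave shares of 0.22 in progenitor-like and -0.50 in mesenchyme-like cells, and thinning to 2000 UMIs gave 0.059 in progenitor-like cells. At least 3 UMIs gave 0.19 in progenitor-like and -1.28 in endothelial-like cells.

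A minimum of 50 UMIs left counts of 2 in amacrine-like, 2 in photoreceptor-like and 2 in RPE-like cells, and 0.1 CPM added gave 1 in mesenchyme-like and 10 in RPE-like cells. At resolution 2 the summed level in progenitor-like cells was 0.19 and the amacrine-like count 1. Without doublet removal the summed level was 0.24 in mesenchyme-like, 0.27 in amacrine-like, 0.23 in photoreceptor-like and 0.18 in endothelial-like cells, the endothelial-like share -0.15, and the counts 1 in mesenchyme-like and 8 in photoreceptor-like cells. With at least 4000 UMIs per cell, chosen after seeing the data, the summed level was 0.17 in progenitor-like, 0.24 in neurogenic-like, 0.33 in RPE-like and -0.065 in endothelial-like cells, the share 0.082, 0.12 and 1.02 in the first 3 of these, and the counts 3 in neurogenic-like and 2 in amacrine-like cells. The intervals of the endothelial-like level and of the neurogenic-like share included 0.

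The log2 ratio of histone over mitosis state, 0.85 in the control and 0.72 in the mutant, was 0.16 and 0.22 with a cut at 1 UMI, 1.39 and 1.22 at 3 UMIs, and 0.31 and 0.26 with thinning to 2000 UMIs. Depth limits single genes in amacrine-like, photoreceptor-like, RPE-like and endothelial-like cells, where most counts were below 100 UMIs. Mesenchyme-like cells were better counted, with 12029 control and 8475 mutant UMIs over the 40 genes.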
